A study of Homo sapiens with 4 samples.

Results

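The genes described here encode the subunits of the proteasome and the factors that assemble it, measured in the human neuroblastoma line SK-N-AS. A member is any gene whose symbol is PSMA, PSMB, PSMC, PSMD, PSME, PSMF or PSMG followed by a number alone. PSMB8 and PSMB9 were left out by the rule, as were 5 symbols that go on after the number and name antisense or interacting genes. The rule gave 42 genes of the 17687 with a symbol on the array, each with 1 probe set. By role they were 14 subunits of the core particle, 14 of the regulatory cap, 7 assembly factors, 3 activators, 1 inhibitor and 3 tissue or immune forms of core subunits.

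Cells were kept for 48 h either with BG-P400-TAT at 30 µM (treated) or with phosphate-buffered saline (untreated), and each group has 2 Affymetrix whole-transcript arrays. The series title presents the compound as aimed at the norepinephrine transporter and at the integrin αvβ3, and the stated purpose was to look at its anticancer action. Both groups are the same line grown in serum-containing medium, and the sources used here do not say how the 2 cultures of a group were kept apart, so p-values cover only the spread between these arrays. In extracts of whole cultures, fewer expressing cells and less RNA per cell cannot be told apart.

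The proteasome is the large protease of the cytosol and nucleus that degrades proteins tagged with ubiquitin. Its core particle is a barrel of stacked rings, with outer rings of alpha subunits that gate the entrance and inner rings of beta subunits that hold the cutting sites inside. The regulatory cap binds ubiquitin, removes it and feeds the unfolded chain into the barrel. Dedicated chaperones build the rings and the base of the cap and then leave. When proteasome activity falls, the transcription factor encoded by NFE2L1 is known to raise subunit genes together through antioxidant response elements in their promoters. In neuroblastoma, proteasome inhibitors have been studied as a means of killing the tumour cells.

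Levels are log2 expression values per probe set. A probe set counts as above background where it is brighter than 95% of the negative-control sets on that array, a limit of 7.19 to 7.64 over the 4 arrays. Untreated replicate 2 had the limit of 7.64, with 8808 probe sets above it. On the other arrays the limit was 7.19 to 7.31, with 9413 to 9657 above it. Of the markers of the line, VIM and the other 5 mesenchymal genes were above this limit on all 4 arrays, as were PHOX2A, HAND2, GATA3 and ISL1 of the 6 adrenergic genes with a probe set. TH, DBH and MYCN were above it on 0 arrays. Of the markers of other cell types, EPCAM, CDH1, PECAM1, CDH5, VWF, CD3E and CD14 were above it on 0 arrays, whereas KRT8, KRT18 and the leukocyte gene PTPRC were above it on 4. PTPRC read 12.78 in untreated and 12.64 in treated cells, and KRT18 8.12 and 8.78. Whether any of these moves with the proteasome values was not tested.

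The core, cap and assembly genes were above background on every array. Of the 42 genes, 39 were above the negative controls on all 4 arrays, with means over the arrays from 9.47 for PSMD9 to 14.91 for PSMB4. The other 3 were the specialised core forms. PSMA8, the alpha subunit of the testis, and PSMB11, the beta subunit of the thymus, were above on 0 arrays. PSMB10, a catalytic subunit of the immune form, read 7.16 and 7.73 untreated and 7.23 and 7.58 treated, and was above the limit on 3 of the 4. The groups of PSMB10 overlapped. Probe set means ran from 10.08 to 14.91 in the core particle (median 13.21), from 9.97 to 14.43 in the cap (median 12.70) and from 9.47 to 12.41 among assembly factors (median 11.28). Brightness also depends on the probes of each set, so these levels give no order of transcript amounts between genes.

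**Figure D1:**
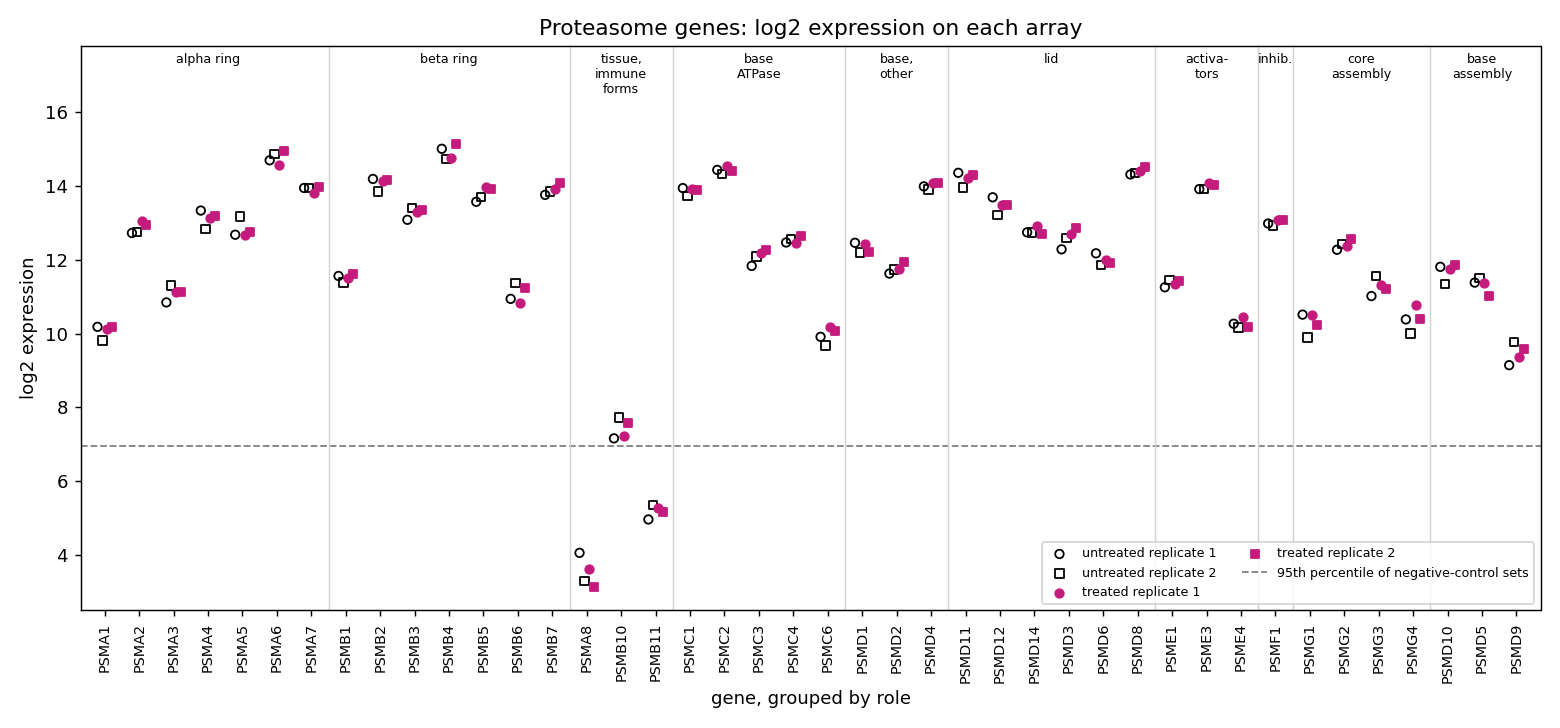
Log2 expression (vertical axis) of the 42 proteasome genes (horizontal axis, grouped by role) on each of the 4 arrays. Open symbols are untreated and filled symbols treated arrays, circles are replicate 1 and squares replicate 2, and the dashed line is the negative-control limit of the mean, 6.96. PSMA8 and PSMB11 lie below the line on every array, and 39 genes lie well above it.

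Between treated and untreated cells the proteasome genes differed by small amounts, mostly upward, and no gene passed the test. Of the 21448 probe sets, 0% passed a limma adjusted p of 0.05, and so 0 of the 42 members did, the smallest adjusted p among them being 0.948. At an unadjusted p under 0.05 there were also 0 members, where 2.2% of all probe sets were higher and 2.88% lower in treated cells. The median log2 difference, treated minus untreated, was 0.087 over the 42 genes, against -0.0046 over all probe sets tested and 0.038 over the 9960 probe sets whose mean over the arrays exceeded 6.96, called bright below. Leaving out an array gave 0.065 to 0.13 for the 42 genes and 0.0066 to 0.063 for the bright probe sets. The value for the genes was 0.13 without untreated replicate 1. That for bright probe sets was 0.0066 without untreated replicate 2 and 0.063 without untreated replicate 1. Cyclic loess gave the genes 0.058. No value under cyclic loess is given for the bright probe sets, so 0.058 has no counterpart to the 0.038 above.

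Among the 39 genes above background on every array, 31 had a difference above 0 (79.5%), where 58.6% of bright probe sets did. The sign of 15 of the 39 was kept in all 4 fits with an array left out, and 14 of these were positive. The sign of the other 24 turned in at least 1 such fit. A gene whose groups do not overlap must keep its sign in these fits, and of the 15 only PSMC2 and PSMG2 had overlapping groups. The count of kept signs is therefore not separate from the counts without overlap that follow. Both treated arrays read higher than both untreated arrays in 12 of the 39 (30.8%), against 20.9% of bright probe sets. Both read lower in 1 of the 39 (2.56%), against 11.5%. Over the 8705 probe sets above background on all 4 arrays, as the 39 genes are, these shares were 57.9%, 20.3% and 11.4%. The count of 31 was 28 without untreated replicate 1, 25 without untreated replicate 2, 32 without treated replicate 1 and 29 without treated replicate 2, while the share of bright probe sets with a difference above 0 was 60.4%, 51.5%, 55.2% and 59.7%. Since genes of one complex were measured on the same arrays, these counts are not independent observations. The 95% confidence intervals of all 39 lay within 2-fold in both directions, and those of 20 (51.3%) lay within 1.5-fold. These shares were 95.3% and 41.6% of bright probe sets and 97.1% and 44.5% of those above background on all 4 arrays. Brighter probe sets came closer to the 39 genes. Of the 5712 with a mean of at least 9.47, that of PSMD9, 5630 lay within 2-fold and 2939 within 1.5-fold.

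**Figure D2:**
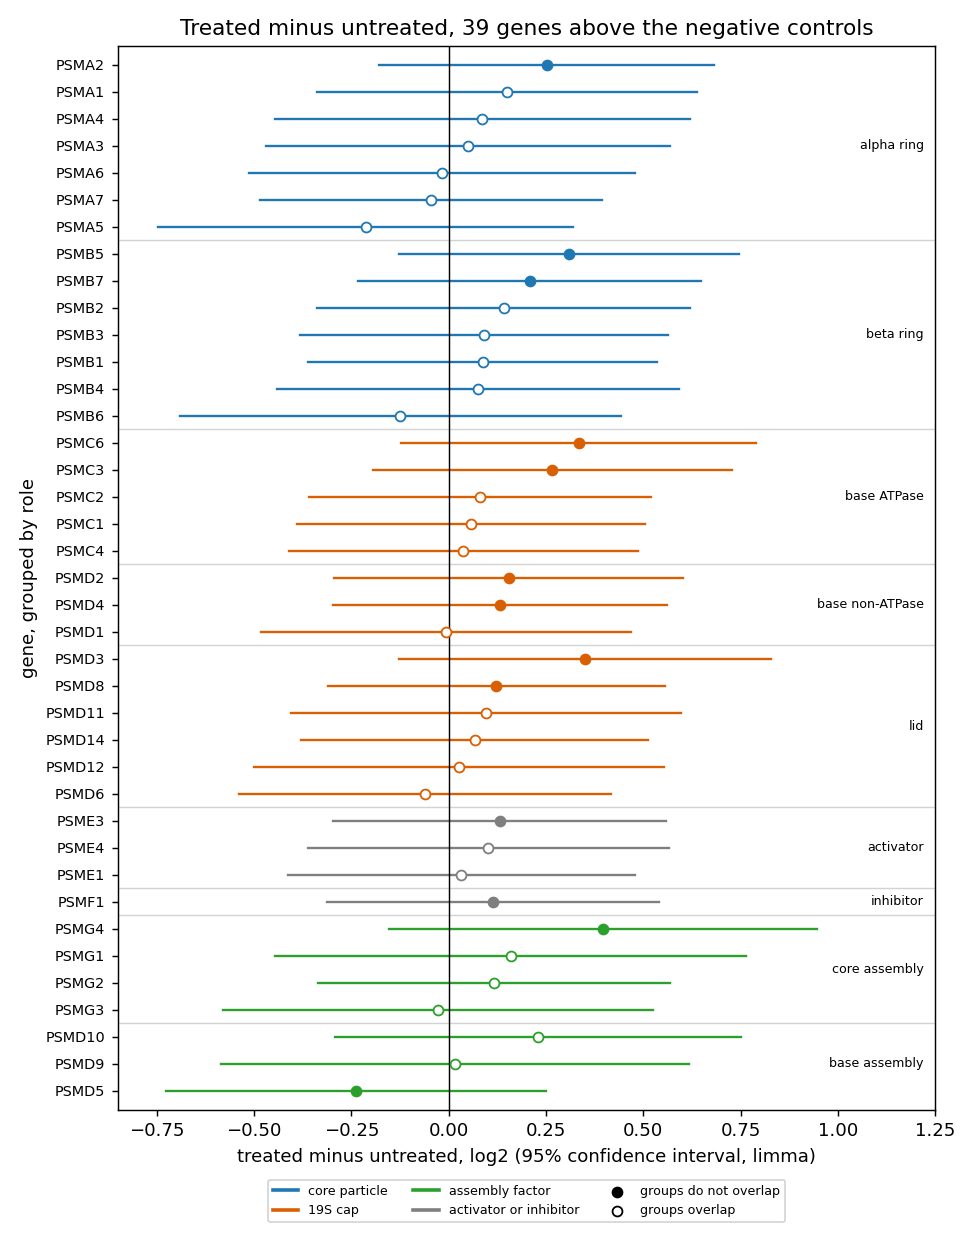
Treated minus untreated log2 difference (horizontal axis) for the 39 proteasome genes above background on all arrays (vertical axis, grouped by role), with 95% confidence intervals from limma. Filled points are genes whose treated and untreated readings do not overlap, 12 higher and 1 lower in treated cells. Every interval includes 0, and PSMG4 has the largest difference in the fit of all 4 arrays, 0.40.

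The 3 catalytic beta subunits differed in sign, and none passed the test. PSMB5, the chymotrypsin-like subunit and the main target of bortezomib, read 13.58 and 13.71 in untreated cells and 13.99 and 13.92 in treated cells. Both treated readings lay above both untreated ones, and the log2 difference was 0.31 (95% confidence interval -0.13 to 0.75), with 0.24 to 0.38 when an array was left out. PSMB7, the trypsin-like subunit, read 13.76 and 13.85 untreated and 13.93 and 14.09 treated, again without overlap. Its difference was 0.21 (interval -0.23 to 0.65), and 0.13 without treated replicate 2. PSMB6, the caspase-like subunit, read 10.94 and 11.37 untreated and 10.83 and 11.23 treated. The PSMB6 groups overlapped, the difference was -0.12 (interval -0.69 to 0.44), and it became 0.091 without untreated replicate 2 and 0.076 without treated replicate 1. PSMB1, PSMB2, PSMB3 and PSMB4, the structural subunits of the beta ring, had overlapping groups and differences from 0.075 to 0.14. Over the 7 beta subunits, 6 were positive, with a median of 0.092.

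In the alpha ring, which forms the gate, 4 of 7 differences were positive and the median was 0.050. That is near the bright probe sets, of which 58.6% were positive with a median of 0.038. The same 2 values are the background for the counts and medians of the other roles. PSMA2 read 12.73 and 12.75 in untreated cells and 13.04 and 12.94 in treated cells. The PSMA2 groups did not overlap, and the difference was 0.25 (interval -0.18 to 0.68), with 0.20 to 0.30 when an array was left out. PSMA5 read 12.68 and 13.18 untreated and 12.68 and 12.76 treated. Its difference of -0.21 (interval -0.75 to 0.32) rested on the untreated replicate 2 reading of 13.18, and was 0.036 without that array. The other alpha subunits lay between -0.045 for PSMA7 and 0.15 for PSMA1, all with overlapping groups.

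The base of the cap holds the ring of ATPases that unfolds substrates, and all 5 of its measured members had positive differences, with a median of 0.081. PSMC5 was not analysed here. PSMC6 read 9.91 and 9.68 on untreated arrays and 10.19 and 10.08 on treated arrays. The treated readings of PSMC6 were the higher pair, and the difference was 0.33 (interval -0.12 to 0.79), with 0.22 without untreated replicate 2 and 0.45 without untreated replicate 1. PSMC3 read 11.84 and 12.09 untreated and 12.18 and 12.28 treated, a difference of 0.27 (interval -0.19 to 0.73), which was 0.14 without untreated replicate 1 and 0.40 without untreated replicate 2. Its groups did not overlap, although untreated replicate 2 lay closer to the treated readings than to untreated replicate 1. PSMC1, PSMC2 and PSMC4 had overlapping groups and differences of 0.058, 0.081 and 0.038. The difference of PSMC1 was -0.046 without untreated replicate 2. That of PSMC4 was -0.012 without untreated replicate 1, -0.060 without treated replicate 2 and as low as -0.011 under another normalization.

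PSMD1, PSMD2 and PSMD4 complete the base of the cap in this set. PSMD4, a ubiquitin receptor, read 13.99 and 13.91 untreated and 14.08 and 14.09 treated. The difference of 0.13 (interval -0.30 to 0.56) came with no overlap. PSMD2, a scaffold subunit that docks ubiquitin-binding shuttles, read 11.63 and 11.74 untreated and 11.75 and 11.93 treated. Its groups were separated by less than 0.01, and its difference was 0.15 (interval -0.29 to 0.60). Without an array it was 0.062 (treated replicate 2), 0.097 (untreated replicate 1), 0.21 (untreated replicate 2) or 0.25 (treated replicate 1). PSMD1, the other scaffold subunit, had a difference of -0.0074 and overlapping groups.

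The lid surrounds PSMD14, the enzyme that cuts ubiquitin from substrates, and 5 of its 6 measured members were positive with a median of 0.081. PSMD7 and PSMD13 were not analysed here. PSMD3, a structural lid subunit, read 12.29 and 12.59 in untreated and 12.71 and 12.87 in treated cells. Both treated readings were higher, and the difference of 0.35 (interval -0.13 to 0.83) was the largest in the cap, a fold of 1.28, and was 0.20 without untreated replicate 1 and 0.50 without untreated replicate 2. PSMD8 read 14.31 and 14.36 untreated and 14.40 and 14.52 treated, a difference of 0.12 (interval -0.31 to 0.55) without overlap, which was 0.064 without treated replicate 2. PSMD14 itself differed by 0.067 (interval -0.38 to 0.51), with overlapping groups. PSMD6, PSMD11 and PSMD12 lay between -0.061 and 0.096, also with overlap.

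Among the assembly factors, 5 of 7 differences were positive, with a median of 0.12. PSMG4, a chaperone of alpha-ring assembly, read 10.39 and 10.00 untreated and 10.78 and 10.40 treated. Its difference of 0.40 (interval -0.15 to 0.95) was the largest of all members in the fit of all 4 arrays, a fold of 1.32, yet treated replicate 2 exceeded untreated replicate 1 by little more than 0.01. The difference of PSMG4 was 0.20 without untreated replicate 2 or treated replicate 1, where that of PSMD3 was 0.50 and 0.43, and 0.59 without either of the others. PSMG1, another chaperone of the alpha ring, read 10.52 and 9.90 untreated and 10.50 and 10.23 treated. The groups of PSMG1 overlapped, and its difference of 0.16 (interval -0.45 to 0.76) became -0.15 without untreated replicate 2. PSMG2, the partner of PSMG1, differed by 0.12 and PSMG3, the partner of PSMG4, by -0.027, both with overlapping groups.

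The chaperones of the base were split in sign. PSMD5 read 11.38 and 11.50 untreated and 11.38 and 11.03 treated, a difference of -0.24 (interval -0.73 to 0.25). It was the 1 member with both treated readings lower, although treated replicate 1 and untreated replicate 1 agree to 2 decimals. The difference of PSMD5 was -0.061 without treated replicate 2 and -0.41 without treated replicate 1. PSMD10, also known as gankyrin, read 11.81 and 11.34 untreated and 11.77 and 11.85 treated. Its difference of 0.23 (interval -0.29 to 0.75) rested on the low reading of untreated replicate 2 and was -0.0039 without it. PSMD9 differed by 0.016 (interval -0.58 to 0.62), with overlapping groups.

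Activators other than the cap, and the inhibitor, had differences from 0.033 to 0.13, and none passed. PSME3, which encodes the nuclear activator PA28 gamma, read 13.92 and 13.93 untreated and 14.08 and 14.02 treated. The groups did not overlap, and the difference was 0.13 (interval -0.30 to 0.56). PSMF1, the inhibitor PI31, read 12.99 and 12.93 untreated and 13.08 and 13.07 treated, a difference of 0.11 (interval -0.31 to 0.54) without overlap. PSME4, the activator PA200, read 10.27 and 10.16 untreated and 10.45 and 10.18 treated. Its groups overlapped, and its difference of 0.10 (interval -0.36 to 0.57) was -0.032 without treated replicate 1. PSME1, a subunit of the interferon-inducible activator, differed by 0.033 with overlapping groups. PSME2 was not analysed here.

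Core, cap and assembly factors were then set side by side on each array, as means over the members of each. The core particle averaged 12.90 and 12.93 untreated and 12.93 and 13.05 treated. Treated replicate 1 lay below untreated replicate 2 in this mean, by less than 0.01, so the core groups overlapped. The cap averaged 12.88 and 12.78 untreated and 12.95 and 12.95 treated, with both treated arrays higher. Assembly factors averaged 10.93 and 10.93 untreated and 11.07 and 10.98 treated, also with both treated arrays higher. The mean over all bright probe sets was likewise higher on both treated arrays, at 10.211 and 10.153 untreated and 10.235 and 10.213 treated. Such a separation is therefore not particular to the cap or the assembly factors. The core mean minus the cap mean was 0.021 and 0.15 untreated and -0.020 and 0.099 treated. The balance between core and cap thus overlapped between the groups and varied more within a group than between the group means. In both groups replicate 2 gave the higher value, and each treated array was lower than the untreated array of the same number. The labels tie these numbers to no shared batch. Assembly factors minus core came to -1.96 and -2.00 untreated and -1.86 and -2.07 treated, likewise overlapping. The median difference was 0.087 for the core, 0.089 for the cap and 0.12 for assembly factors. Requantiled values gave 0.058, 0.058 and 0.075, and cyclic loess 0.055, 0.064 and 0.083. Leaving out an array gave 0.050 to 0.17 for the core, 0.075 to 0.14 for the cap and 0.026 to 0.19 for assembly factors, ranges wider than the gaps between the 3 medians. Without untreated replicate 1 the median was 0.17 for the core and 0.040 for assembly factors, and without untreated replicate 2 it was 0.051 and 0.19. Without treated replicate 1 the core and cap medians were 0.15 and 0.13, and without treated replicate 2 those of the core and assembly factors were 0.050 and 0.026.

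**Figure D3:**
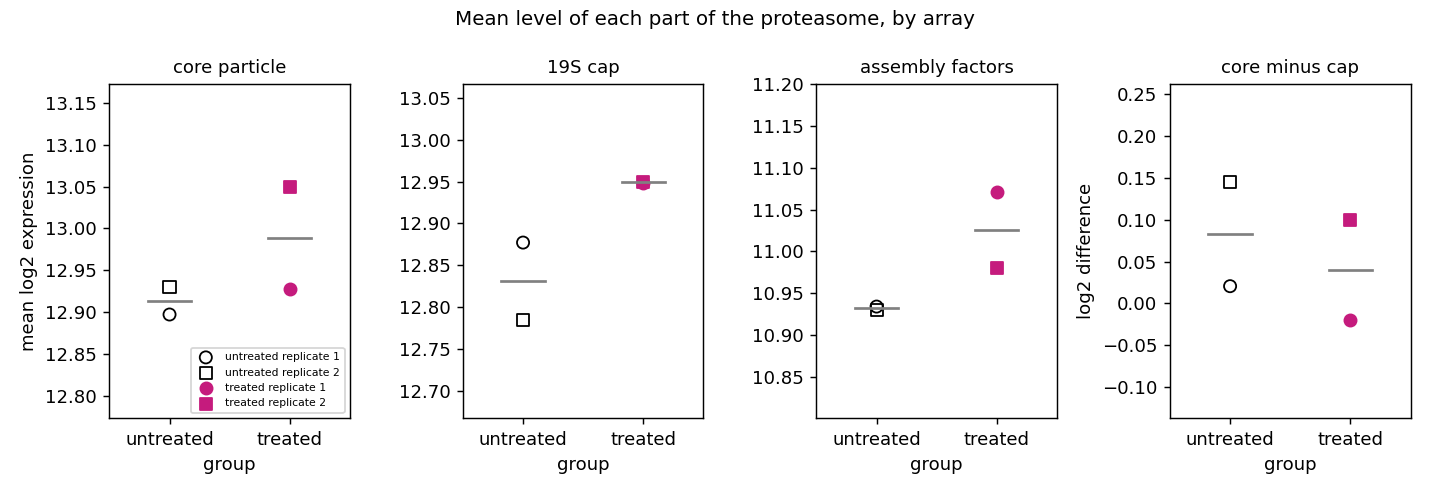
Mean log2 expression of the core particle (14 genes), cap (14) and assembly factors (7) on each array, and the core mean minus the cap mean, with untreated and treated arrays on the horizontal axis. Each vertical axis spans the same log2 range without starting at 0, symbols are single arrays and grey bars are group means. The groups are apart for the cap and the assembly factors and overlap for the core particle and for core minus cap. The mean over bright probe sets, not drawn, is also higher on both treated arrays.

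In these genes the 2 untreated arrays differed more from each other than the 2 treated arrays did. The median absolute log2 difference over the 39 members was 0.229 between the untreated arrays and 0.112 between the treated arrays. Untreated replicate 1 gave 0.129 with treated replicate 1 and 0.186 with treated replicate 2. Untreated replicate 2 gave 0.191 with treated replicate 1 and 0.188 with treated replicate 2. Over bright probe sets the untreated pair gave 0.203 and the treated pair 0.157. Of the 39 genes, 18 had their lowest reading on untreated replicate 2, 14 on untreated replicate 1, 5 on treated replicate 1 and 2 on treated replicate 2. Among bright probe sets these shares were 38.1%, 23.3%, 14.7% and 23.9%. An untreated array held the lowest reading in 32 of the 39 (82.1%), against 61.5% of bright probe sets. A treated array held the highest reading in 22 of the 39 (56.4%), close to the 52.7% of bright probe sets.

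Promoters were read for the antioxidant response element and for the ETS, CCAAT, SP1 and CREB or ATF motifs. RefSeq promoters of GRCh38.p14, from 250 bases before to 50 after the gene start, were found for 36 of the 42 members, and not for PSMA7, PSMB1, PSMB6, PSMB7, PSMD4 and PSMG3. The core of the antioxidant response element, TGACNNNGC on either strand, occurred in 11 of the 36 (30.6%), in 13.6% of all 27305 promoters and in 14.6% of the 14250 promoters of genes on the array. The 11 were spread unevenly by role. They were 1 of the 10 core particle promoters, 4 of the 13 of the cap, 4 of the 6 of assembly factors and 2 of the 7 others. The ETS motif CCGGAAG occurred in 11 of the 36 and in 10.7% of all promoters and 14.3% of those on the array, with 0 of the 10 core particle promoters and 7 of the 13 cap promoters among them. CCAAT occurred in 16 of the 36 (44.4%), against 35.7% of all promoters and 36.4% of those on the array. The SP1 motif GGGCGG occurred in 22 of the 36 (61.1%), against 44.6% and 59.5%, and the CREB and ATF motif TGACGTCA in 0 of the 36, against 1.98% and 2.62%. In 3 of the 33 members with any match, among them PSMG4, an ETS match shared bases with an SP1 match. A match of letters is a description and not a binding site.

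Windows are shown for the members with the largest differences that hold 1 of the first 2 motifs (PSMD3, PSMC6 and PSMG4). Windows also follow for 3 further members with the antioxidant element, PSMB3, PSMD12 and PSMD5, whose differences were 0.092, 0.027 and -0.24. All these windows were chosen after the values were seen. Each is printed 5′ to 3′ on the strand of the gene, wholly before its start, with the motif or its reverse complement in capitals.
PSMD3, antioxidant element from 37 bases before the start, chr17:39980750-39980798, plus strand: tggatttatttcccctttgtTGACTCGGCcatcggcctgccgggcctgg
PSMB3, antioxidant element from 104 bases before, chr17:38752617-38752665, plus strand: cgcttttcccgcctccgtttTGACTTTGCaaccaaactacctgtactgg
PSMD12, antioxidant element from 165 bases before, chr17:67366714-67366762, minus strand: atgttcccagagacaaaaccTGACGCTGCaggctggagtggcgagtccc
PSMD5, antioxidant element from 134 bases before, chr9:120843028-120843076, minus strand: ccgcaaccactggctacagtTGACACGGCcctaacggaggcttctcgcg
PSMC6, ETS motif from 107 bases before, chr14:52707073-52707119, plus strand: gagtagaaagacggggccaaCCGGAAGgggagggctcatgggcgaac
PSMG4, ETS motif, reverse complement, from 44 bases before, chr6:3258883-3258929, plus strand: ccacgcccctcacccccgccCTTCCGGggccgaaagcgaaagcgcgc

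Over the 11 members with the antioxidant element, all above background, 9 differences were positive, with a median of 0.038 and a range from -0.24 for PSMD5 to 0.35 for PSMD3. Over the 22 members above background whose promoter lacked it, 19 were positive with a median of 0.12, and the difference between these medians was not tested. NFE2L1, the factor that restores proteasome genes, read 13.08 and 12.93 untreated and 13.20 and 13.10 treated, a difference of 0.14 without overlap. NFE2L2, the related oxidative stress factor, had a difference of -0.038 with overlapping groups.

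Other genes that work with the proteasome also had mostly positive differences, and none passed. Of 32 such genes outside the rule, 26 had a named probe set, 22 of these had a positive difference and 0 passed at a limma adjusted p of 0.05 or at an unadjusted p under 0.05, and the median was 0.12. SEM1 and NGLY1 were above background on 0 arrays. Of the 23 above it on all 4, 19 were positive (82.6%, against 57.9% of all probe sets so chosen). Both treated arrays were higher in 8 of these 23 and lower in 1, UCHL5, a deubiquitinase of the cap, against shares of 20.3% and 11.4%. The 5 with the smallest p were PAAF1, BAG6, ADRM1, UBQLN2 and ZFAND5. ADRM1, the ubiquitin receptor that recruits UCHL5, read 10.59 and 10.41 untreated and 10.82 and 10.87 treated, a difference of 0.34 (interval -0.10 to 0.79). BAG6, a chaperone for misfolded proteins, read 12.98 and 12.96 untreated and 13.20 and 13.49 treated, a difference of 0.38. The ubiquitin shuttle gene UBQLN2 differed by 0.31, ZFAND5, a proteasome activator, by 0.27, and PAAF1, a chaperone of the base, by 0.45, though PAAF1 was above background on 3 of the 4 arrays. POMP, which matures the core particle, differed by 0.060 with overlapping groups.

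PSMB8 and PSMB9, which replace constitutive catalytic subunits in the immune form, were expressed in both groups. PSMB8 read 11.11 and 11.53 untreated and 11.26 and 11.54 treated, and PSMB9 11.91 and 12.55 untreated and 12.22 and 12.55 treated, so both overlapped between groups. For PSMB8, PSMB9 and PSMB10 alike, the replicate 2 array of each group gave the higher reading of its group.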

How the data were processed

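The authors deposited log2 expression values per probe set for 4 arrays, and Transcriptome Analysis Console 4.0.1.36 and RMA are listed, without their roles, in the submitters' processing notes. RMA equalises the arrays' distributions, which would hide a shift of most genes. That the scale is log2 follows from the values' range. The table holds 24351 probe sets, of which 2903 are controls, and the other 21448 were tested without a filter. The platform annotation gave 1 symbol to 17709, and 3739 are unnamed here. Groups were compared with limma 3.58.1 (lmFit, eBayes) under R 4.3.3, group as the only term, two-sided, Benjamini-Hochberg adjusted over all probe sets, at 0.05. The fit has 2 residual and 4.90 prior degrees of freedom, and was checked on simulated data. An exact permutation test of 2 arrays against 2 has 6 arrangements and cannot go below 0.333. The number of arrays limits the precision. Members and lists were chosen with earlier results of these data known, so lists are described by counts and medians. Values per array are given for the catalytic subunits, up to 2 members of smallest p per role, members at least 0.3 apart without overlap, and members near background. Alternatives were other normalizations, a background filter, trended or robust variances, a block on the replicate number, and each array left out.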

Additional observations from a re-analysis of the deposited data

How the results depend on the processing

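The confidence intervals of the members had a median half-width of 0.48 on the log2 scale, and no alternative called a member. The number called stayed at 0 under requantiled values, median centring, cyclic loess, the background filter, trended and robust moderation, the wider and narrower member lists and with any array left out, the smallest adjusted p being 0.458, without untreated replicate 1. With the replicate block it was also 0 (smallest adjusted p 0.929, median over all members 0.087). The labels tie the numbers to no shared batch, and same-numbered arrays had a correlation of deviations of -0.00085, so the numbers were not taken as pairs. Requantiling lowered the medians to 0.060 (all members), 0.058 (core), 0.058 (cap) and 0.075 (assembly factors), and cyclic loess to 0.058, 0.055, 0.064 and 0.083. With an array left out, the medians ran from 0.050 to 0.17 for the core and from 0.075 to 0.14 for the cap. Of the 39 members above background, 24 turned sign in at least 1 fit with an array left out. Among members described by array these were PSMA5 (-0.46 to 0.036), PSMB6 (-0.34 to 0.091), PSMD10 (-0.0039 to 0.46), PSME4 (-0.032 to 0.24) and PSMG1 (-0.15 to 0.47), and PSMB10 (-0.32 to 0.24), above background on 3 arrays, turned too. Under another normalization of all 4 arrays, PSMC4, PSMD12, PSMD9 and PSME1 fell below 0, to -0.011, -0.0024, -0.032 and -0.0060 at the lowest. The cause of these turns was not tested. Averaging the probe sets of a gene changed nothing, as each member has 1.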

Other observations

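Of the 5 symbols left out by name, 4 were above background on all arrays. PSME3IP1, an interactor of PSME3, read 12.29 and 11.66 untreated and 11.94 and 12.11 treated, and PSMC3IP, a meiotic recombination factor, read 9.27 and 9.25 untreated and 9.48 and 9.11 treated, both with overlapping groups. The antisense RNA PSMA3-AS1 read 9.25 and 9.13 untreated and 9.25 and 9.35 treated, and PSMG3-AS1 read 7.85 and 8.01 untreated and 7.91 and 7.69 treated. PSMB8-AS1 was above background on 0 arrays.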
